A study of Mus musculus with 36 samples.

Results

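The 37 genes described here mark macrophages and T cells, or leukocytes in general, in kidney cortex. They were taken by name from lists of genes known to be made by these cells, lists drawn up with earlier results of these data in view, and 34 of them were found among the 15730 genes of the count table. Il2rg, Itgam and Cd3g were not analysed here. All 34 passed the low-count filter, so no member was left out of the tests. Expression was measured by RNA sequencing of the kidney cortex of male ApoE−/− mice on C57BL/6, which lack apolipoprotein E and are prone to atherosclerosis. The deletion is shared by all 6 groups, and there is no group with a working Apoe gene.

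Diabetic mice had received streptozotocin, a toxin of the insulin-making beta cells, at 6 weeks of age in 5 daily injections of 55 mg/kg. The groups were diabetic mice given lipoxin A4 (LXA4, 5 µg/kg), diabetic mice given benzo-LXA4 (1.7 µg/kg) and diabetic mice given ethanol vehicle (0.1%). Nondiabetic mice given LXA4, benzo-LXA4 or vehicle at the same doses made up the other 3 groups. The compounds were injected into the abdomen 2 times per week. An intervention arm treated from week 10 to week 16 is described in the labels, which do not tie these libraries to it outright. LXA4 is a lipid made from arachidonic acid as inflammation resolves, and benzo-LXA4 is a synthetic analog with a benzene ring. Each group had 6 libraries, which the labels do not call separate mice. The p-values thus set group differences against the spread between these libraries only, and part of that spread may be technical.

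The kidney holds resident macrophages, which lie between the tubules and around the glomeruli, engulf debris and present antigen, and smaller numbers of T cells. In diabetic kidney disease, macrophages and T cells are known to gather in the interstitium. The macrophage genes encode surface receptors, lysosomal and secreted proteins, the chains of C1q (the recognition part of the first complement component) and MHC class II molecules, which show peptides to helper T cells. The T cell genes encode parts of the antigen receptor, its coreceptors CD4 and CD8, the kinase that starts its signal and a chemokine.

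Library totals ran from 8896193 to 43305005 counts. In 2 libraries a large share of the counts fell on ribosomal and other small structural RNA genes, 42.9% in diabetic LXA4 replicate 6 and 11.6% in nondiabetic vehicle replicate 3, against at most 3.44% in the other 34. These were also the libraries with the fewest counts. Diabetic LXA4 replicate 6 held the highest value of its group for 15 of the 34 members and the lowest for 13, and it had 0 counts for Cd68, Fcgr3, Cd4, Cd8a and Cd3e. A count of 0 there allows a level of up to 0.708 CPM. Nondiabetic vehicle replicate 3 held the highest value of its group for 11 members and the lowest for 11. Results are therefore also given without both libraries. The proximal tubule markers, the defining genes of cortex, were present in every group.

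Levels are counts scaled to the TMM-adjusted library total (CPM). Divided by exon length, so that genes can be set beside each other, mean levels over the 36 libraries ran from 42.7 CPM per kb for Cd74, the invariant chain of MHC class II, to 0.116 for Cd3e, a chain of the T cell receptor complex. Cd74 was followed by H2-Eb1 at 20.4, Lyz2 at 13.4, H2-Ab1 at 12.04 and C1qb at 10.3 CPM per kb. The 6 T cell genes ranked among the lowest 7 on this scale, between 0.116 and 0.485 CPM per kb, together with the scavenger receptor gene Msr1 at 0.166. Their counts were small, from 0 to 64 per library for Cd4 and from 6 to 122 for Cd247, against 652 to 2939 for Cd74. The coefficient of variation within groups ran from 14.1% for Csf1r to 58.1% for Coro1a.

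The broadest comparison asked which members differed between the 18 diabetic and the 18 nondiabetic libraries, as the mean of the 3 diabetic groups minus the mean of the 3 nondiabetic groups. With edgeR's quasi-likelihood test and Benjamini-Hochberg adjustment over all genes, 16 of the 34 members were higher in diabetic cortex and 0 were lower, at an adjusted p under 0.05. Of all 15726 genes tested, 35.4% were called in this comparison, 18.8% higher and 16.6% lower. The median log2 difference was 0.27 over the members and 0.01 over all genes, and 31 of 34 members lay above 0, against 52.1% of all genes. The 16 were 4 T cell genes (Cd247, Cd4, Ccl5 and Lck), 4 surface receptors (Mrc1, Msr1, Cx3cr1 and Adgre1), 3 lysosomal or secreted proteins (Ctss, Lgals3 and Lyz2), all 3 C1q chains and 2 general leukocyte genes (Laptm5 and Itgb2). In bulk tissue, more cells of a type and more RNA per cell cannot be told apart. When both libraries rich in structural RNA were removed, the same 16 and Fcgr3 were called, 17 in all. In that fit 47.4% of all genes were called, 22.5% higher and 24.9% lower.

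**Figure D1:**
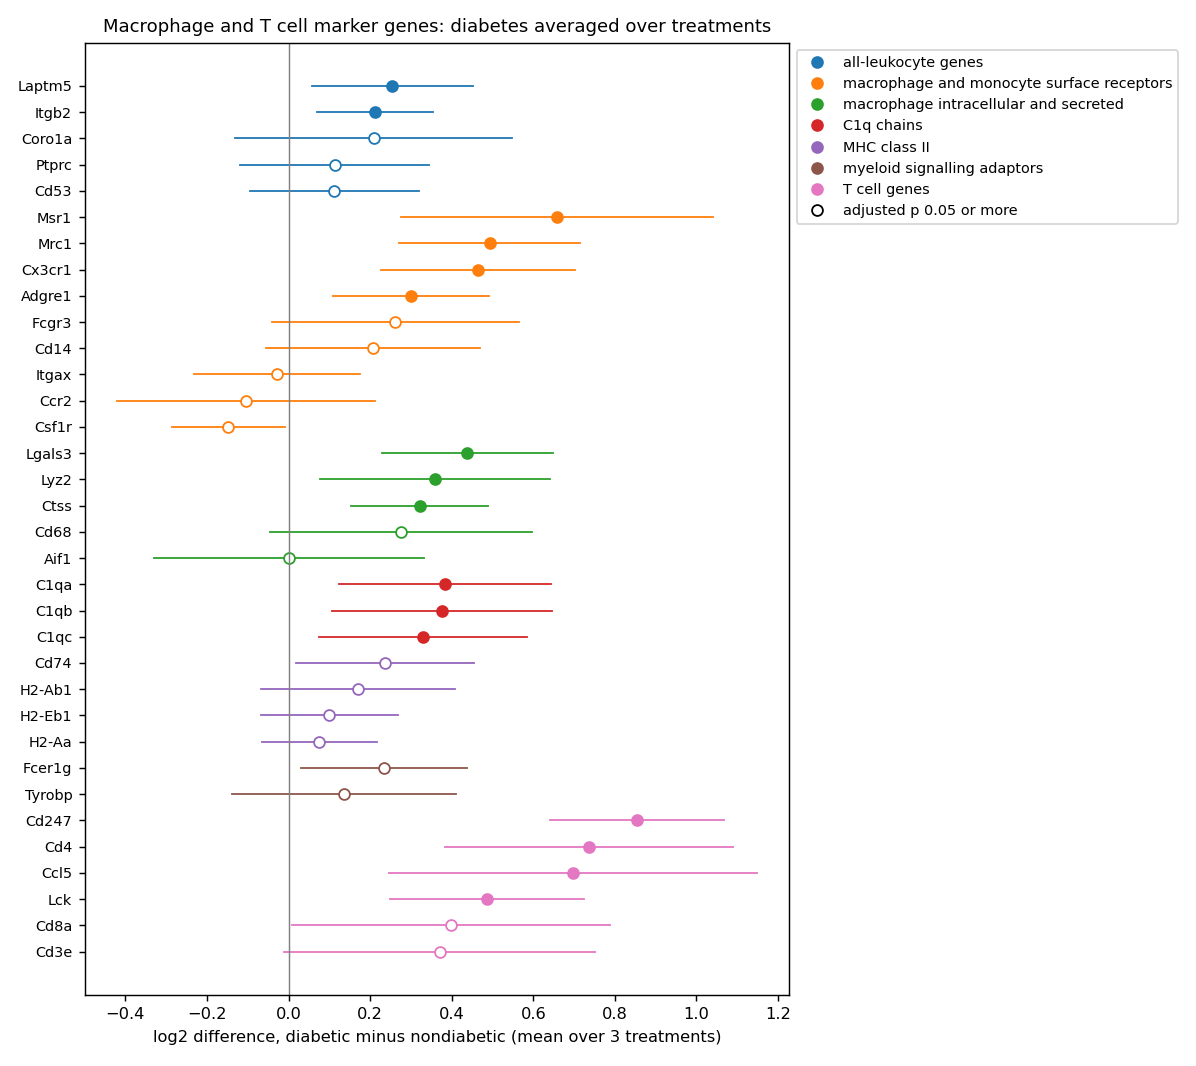
Log2 difference of each of the 34 genes (rows, coloured by role), diabetic minus nondiabetic, averaged over the 3 treatments, with 95% confidence intervals. Filled points mark the 16 genes with an adjusted p under 0.05, which all lie to the right of 0, and the highest is Cd247 at 0.85.

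Among the T cell genes, Cd247 differed most clearly. It encodes the zeta chain of the T cell receptor complex, which is shared with NK cells, and lies on chromosome 1 from 165788681 to 165877277 (GRCm38, plus strand). Cd247 lay at 1.42, 2.702 and 3.12 CPM (lowest, median and highest) with LXA4, 1.73, 2.44 and 3.13 CPM with benzo-LXA4 and 2.07, 2.34 and 3.31 CPM with vehicle in diabetic mice. In nondiabetic mice it lay at 1.27, 1.41 and 1.93 CPM with LXA4, 1.01, 1.26 and 1.61 CPM with benzo-LXA4 and 0.872, 1.52 and 1.699 CPM with vehicle. All 6 diabetic vehicle libraries lay above all 6 nondiabetic vehicle libraries, and the same was true of the benzo-LXA4 groups. Of all genes, 1.72% had this with vehicle and 3.18% with benzo-LXA4. The LXA4 groups overlapped, since diabetic LXA4 replicates 6 and 1 had 1.42 and 1.84 CPM, below the highest nondiabetic LXA4 library. Without replicate 6 the diabetic LXA4 mean was 2.68 ± 0.541 CPM (SD, n = 5). The log2 difference averaged over treatments was 0.85 ± 0.10 (SE), a 1.81-fold level (adjusted p = 2.59e-07, edgeR), and the call was kept in all 36 fits that each lacked 1 library. The Cd247 locus overlaps Pou2f1 in the annotation and the strand setting of the counting is not given in the sources used here, so reads of Pou2f1 could contribute.

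Cd4, the coreceptor of helper T cells, and Ccl5, a chemokine of activated T cells, were also higher. Cd4 lay at 0, 1.18 and 1.605 CPM (lowest, median and highest) with LXA4, 0.494, 1.17 and 1.898 CPM with benzo-LXA4 and 0.951, 1.17 and 1.79 CPM with vehicle in diabetic mice. Nondiabetic libraries had 0.531, 0.669 and 1.03 CPM with LXA4, 0.455, 0.745 and 1.098 CPM with benzo-LXA4 and 0.343, 0.655 and 0.872 CPM with vehicle. With vehicle, every diabetic library exceeded every nondiabetic one for Cd4, which 1.72% of all genes had. Its averaged log2 difference was 0.74 ± 0.17 (adjusted p = 0.00135, edgeR). Ccl5 lay at 0.108, 0.551 and 1.25 CPM (lowest, median and highest) with LXA4, 0.156, 0.483 and 0.741 CPM with benzo-LXA4 and 0.548, 0.686 and 0.874 CPM with vehicle in diabetic mice. The nondiabetic groups ran at 0.294, 0.439 and 0.724 CPM with LXA4, 0.0991, 0.328 and 0.541 CPM with benzo-LXA4 and 0.114, 0.372 and 0.408 CPM with vehicle. Ccl5 too was higher in every diabetic vehicle library than in any nondiabetic vehicle library, whereas with LXA4 and with benzo-LXA4 the ranges overlapped. Its averaged log2 difference was 0.70 ± 0.22 (adjusted p = 0.0143, edgeR), and the call was lost with limma's voom and quality weights (log2 difference 0.44, adjusted p = 0.104). At 1 to 50 counts per library, Ccl5 was one of the least precisely measured members.

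Lck, the kinase that starts T cell receptor signalling, rose by 0.49 ± 0.12 on the log2 scale (adjusted p = 0.0016, edgeR). Lck averaged 1.43 ± 0.255 CPM with LXA4, 1.399 ± 0.362 CPM with benzo-LXA4 and 1.33 ± 0.258 CPM with vehicle in diabetic mice. Nondiabetic means were 0.998 ± 0.0936 CPM with LXA4, 1.03 ± 0.346 CPM with benzo-LXA4 and 0.939 ± 0.172 CPM with vehicle. The lower diabetic libraries overlapped the nondiabetic ones for Lck in each treatment. Cd8a, the coreceptor of cytotoxic T cells, and Cd3e, another receptor chain, differed by 0.40 ± 0.19 and 0.37 ± 0.19 on the log2 scale and did not pass the threshold (adjusted p = 0.104 and 0.123, edgeR). Their counts were at most 55 and 34 per library.

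The summed level of the 6 T cell genes was 3.07 to 9.86 CPM with LXA4, 5.13 to 8.81 CPM with benzo-LXA4 and 5.59 to 8.40 CPM with vehicle in diabetic mice. In nondiabetic mice it was 4.15 to 5.20 CPM with LXA4, 3.01 to 5.03 CPM with benzo-LXA4 and 3.20 to 5.55 CPM with vehicle. The diabetic benzo-LXA4 and vehicle sums thus lay narrowly above the nondiabetic sums of the same treatment in every library. The lowest diabetic and highest nondiabetic sums were 5.13 and 5.03 CPM with benzo-LXA4, and 5.59 and 5.55 CPM with vehicle. Cd247 separated the same groups by itself and had the highest mean CPM of the 6 genes (1.95, then Lck at 1.19). Its part in the sums was not tested, and no share over all genes was computed for such sums. The lowest diabetic LXA4 sum was that of replicate 6. Of 17 other T and NK cell genes tested, 8 were higher and 0 lower in the averaged comparison, with a median log2 difference of 0.49. That is 47.1% called, against 35.4% of all genes. The 8 higher ones included Themis (0.95), a regulator of thymocyte selection, and Cd6 (1.10), a coreceptor of T cells. Thy1 (0.91), a surface glycoprotein of mouse T cells, was higher too. By treatment, 1 of the 17 was called with vehicle, 4 with LXA4 and 2 with benzo-LXA4 (5.88%, 23.5% and 11.8%). Over all genes the shares were 5.6%, 27.7% and 4.06%.

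**Figure D2:**
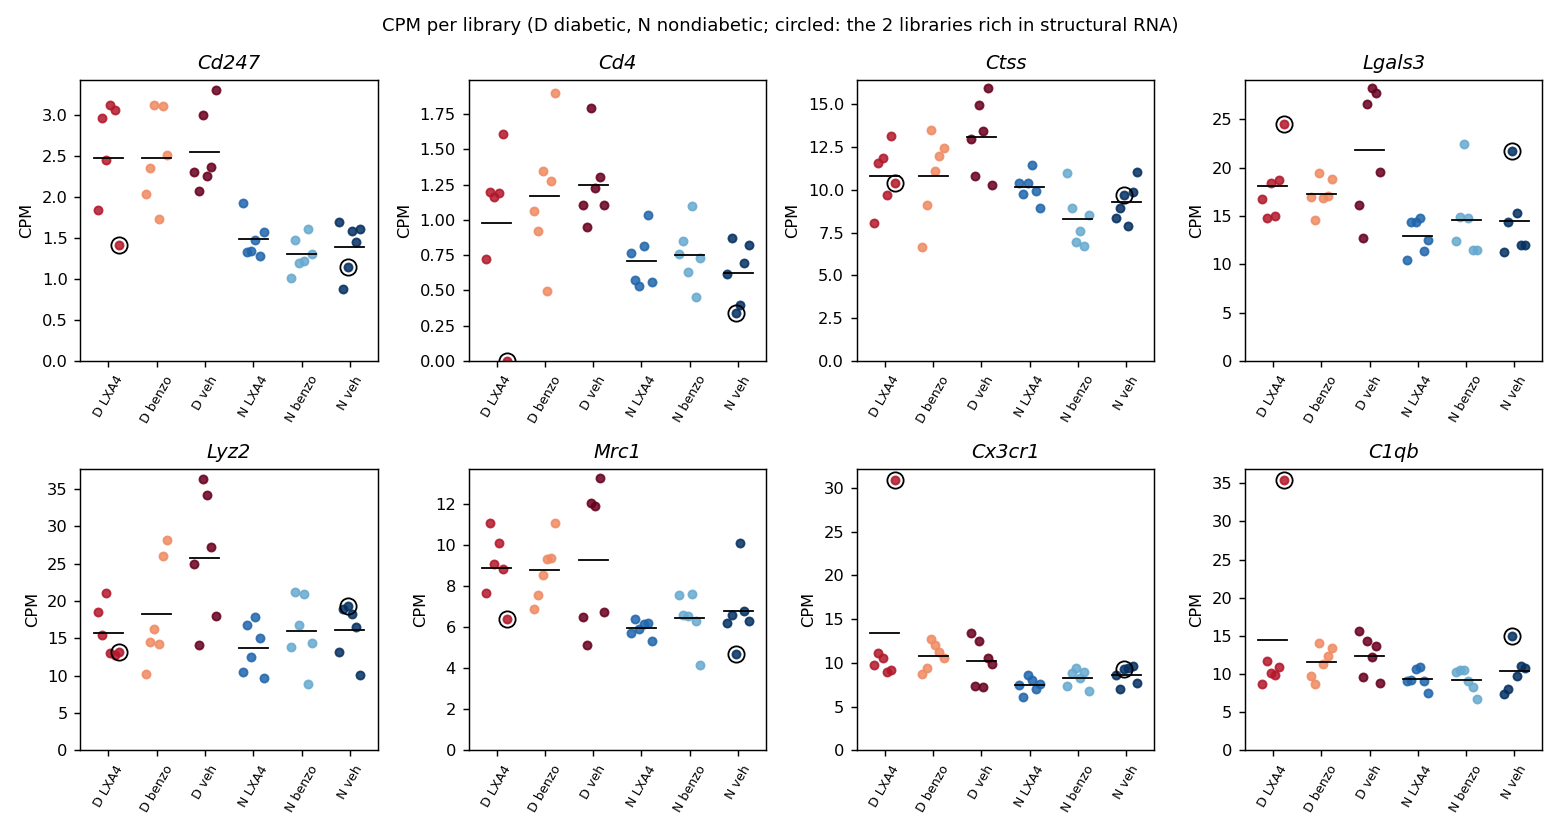
CPM of 8 members in each library, by group, with a black line at the group mean and a circle around the 2 libraries rich in structural RNA (diabetic LXA4 replicate 6 and nondiabetic vehicle replicate 3). All diabetic vehicle and benzo-LXA4 libraries lie above the nondiabetic libraries of the same treatment for Cd247, while the high LXA4 means of Cx3cr1 and C1qb include 1 circled library at 30.9 and 35.4 CPM.

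Among the macrophage surface receptors, 4 of 9 rose and 0 fell. Mrc1, the mannose receptor of tissue macrophages, was higher with a log2 difference of 0.49 ± 0.11 (adjusted p = 0.000737, edgeR). Mrc1 lay at 6.38, 8.96 and 11.04 CPM (lowest, median and highest) with LXA4, 6.88, 8.92 and 11.1 CPM with benzo-LXA4 and 5.15, 9.29 and 13.2 CPM with vehicle in diabetic mice. Values in nondiabetic mice were 5.302, 6.003 and 6.39 CPM with LXA4, 4.17, 6.57 and 7.603 CPM with benzo-LXA4 and 4.69, 6.44 and 10.1 CPM with vehicle. The diabetic vehicle libraries spread widely for Mrc1, 3 of them lying above and 3 below the nondiabetic vehicle mean. Msr1, a scavenger receptor for modified lipoproteins, rose by 0.66 ± 0.19 (adjusted p = 0.00683). Msr1 averaged 1.09 ± 0.336 CPM with LXA4, 1.32 ± 0.539 CPM with benzo-LXA4 and 1.47 ± 0.862 CPM with vehicle in diabetic mice. In nondiabetic mice the means were 0.632 ± 0.155 CPM with LXA4, 0.895 ± 0.352 CPM with benzo-LXA4 and 0.937 ± 0.333 CPM with vehicle.

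Cx3cr1, the fractalkine receptor that marks resident kidney macrophages, rose by 0.46 ± 0.12 on the log2 scale averaged over treatments (adjusted p = 0.00245, edgeR). Cx3cr1 lay at 8.900, 10.2 and 30.9 CPM (lowest, median and highest) with LXA4, 8.76, 10.9 and 12.7 CPM with benzo-LXA4 and 7.26, 10.2 and 13.4 CPM with vehicle in diabetic mice. In nondiabetic mice it lay at 6.07, 7.51 and 8.57 CPM with LXA4, 6.81, 8.56 and 9.41 CPM with benzo-LXA4 and 7.02, 8.92 and 9.62 CPM with vehicle. The value of 30.9 CPM was diabetic LXA4 replicate 6. With those rich in structural RNA removed, the averaged difference was 0.35 (adjusted p = 0.000385). Cx3cr1 overlaps Wdr48 in the annotation, so its reads are uncertain in the same way as those of Cd247. Adgre1, which encodes the F4/80 antigen of mouse macrophages, rose by 0.30 ± 0.09 (adjusted p = 0.0133). Adgre1 averaged 11.04 ± 2.09 CPM with LXA4, 13.2 ± 3.32 CPM with benzo-LXA4 and 14.8 ± 4.64 CPM with vehicle in diabetic mice. The means of nondiabetic mice were 10.5 ± 1.12 CPM with LXA4, 10.8 ± 1.76 CPM with benzo-LXA4 and 10.4 ± 1.501 CPM with vehicle.

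The other 5 surface receptors did not pass. Csf1r, the receptor for the macrophage growth factor CSF1, had an averaged log2 difference of -0.15 ± 0.07 (adjusted p = 0.0872, edgeR). Csf1r averaged 38.1 ± 4.43 CPM with LXA4, 39.6 ± 5.402 CPM with benzo-LXA4 and 39.9 ± 3.73 CPM with vehicle in diabetic mice. Among nondiabetic mice it averaged 45.4 ± 7.28 CPM with LXA4, 45.00 ± 5.92 CPM with benzo-LXA4 and 39.99 ± 7.32 CPM with vehicle. It is thus the most abundant of the receptors per length and one of 3 members below 0, the others being Ccr2 (-0.11 ± 0.16), the receptor that brings monocytes out of the blood, and Itgax (-0.03 ± 0.10), the CD11c integrin. Csf1r overlaps Hmgxb3 in the annotation. Fcgr3, an activating receptor for IgG, and Cd14, a coreceptor for bacterial lipopolysaccharide, differed by 0.26 ± 0.15 and 0.21 ± 0.13. Fcgr3 was called once the structural-RNA-rich libraries were removed (log2 difference 0.31, adjusted p = 0.0222). Diabetic LXA4 replicate 6 had 0 counts of Fcgr3, against 2.38 to 3.61 CPM in the other libraries of its group.

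Of the 5 lysosomal and secreted macrophage genes, 3 rose. Ctss encodes cathepsin S, the lysosomal protease that trims the invariant chain from MHC class II. Ctss lay at 8.05, 10.98 and 13.1 CPM (lowest, median and highest) with LXA4, 6.63, 11.6 and 13.5 CPM with benzo-LXA4 and 10.3, 13.2 and 15.97 CPM with vehicle in diabetic mice. Nondiabetic libraries had 8.97, 10.2 and 11.4 CPM with LXA4, 6.702, 8.07 and 11.01 CPM with benzo-LXA4 and 7.904, 9.32 and 11.02 CPM with vehicle. Its averaged log2 difference was 0.32 ± 0.08 (adjusted p = 0.00285, edgeR). Lgals3 encodes galectin-3, a secreted lectin of activated macrophages that tubule cells can also make. Lgals3 lay at 14.8, 17.6 and 24.6 CPM (lowest, median and highest) with LXA4, 14.6, 17.01 and 19.5 CPM with benzo-LXA4 and 12.7, 23.02 and 28.2 CPM with vehicle in diabetic mice. The nondiabetic groups ran at 10.4, 13.4 and 14.8 CPM with LXA4, 11.5, 13.6 and 22.4 CPM with benzo-LXA4 and 11.3, 13.2 and 21.7 CPM with vehicle. With LXA4 all diabetic libraries lay above all nondiabetic libraries for Lgals3, which 4.87% of all genes had. The averaged difference of Lgals3 was 0.44 ± 0.10 (adjusted p = 0.00134, edgeR). The nondiabetic highs of 21.7 and 22.4 CPM came from replicate 3 of the vehicle and replicate 3 of the benzo-LXA4 group.

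Lyz2 encodes the lysozyme of myeloid cells and had the third highest level per length of all members. Lyz2 lay at 12.7, 14.4 and 21.1 CPM (lowest, median and highest) with LXA4, 10.2, 15.3 and 28.2 CPM with benzo-LXA4 and 14.2, 26.1 and 36.3 CPM with vehicle in diabetic mice. Values in nondiabetic mice were 9.72, 13.8 and 17.8 CPM with LXA4, 8.89, 15.6 and 21.2 CPM with benzo-LXA4 and 10.1, 17.4 and 19.3 CPM with vehicle. Its averaged difference was 0.36 ± 0.14 (adjusted p = 0.0421, edgeR), and the highest diabetic values were found with vehicle. Cd68, a lysosomal membrane protein of macrophages, and Aif1, a cytoskeletal protein of macrophages also called IBA1, differed by 0.28 ± 0.16 and 0.00 ± 0.16 and did not pass.

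The 3 C1q genes lie side by side on chromosome 4 within 18.7 kb, from 136880129 to 136898803 (GRCm38), and encode the 3 chains that assemble into C1q. In mouse kidney they are made mainly by resident macrophages. All 3 rose in the averaged comparison, C1qa by 0.38 ± 0.13, C1qb by 0.38 ± 0.13 and C1qc by 0.33 ± 0.13 on the log2 scale (adjusted p = 0.0187, 0.0267 and 0.0397, edgeR). C1qb averaged 14.4 ± 10.3 CPM with LXA4, 11.6 ± 2.098 CPM with benzo-LXA4 and 12.4 ± 2.67 CPM with vehicle in diabetic mice. Nondiabetic means were 9.404 ± 1.27 CPM with LXA4, 9.23 ± 1.49 CPM with benzo-LXA4 and 10.3 ± 2.71 CPM with vehicle. The wide LXA4 spread came from replicate 6, at 35.4 CPM, and the other 5 libraries averaged 10.2 ± 1.16 CPM. C1qa averaged 7.92 ± 4.26 CPM with LXA4, 7.32 ± 1.22 CPM with benzo-LXA4 and 7.32 ± 2.27 CPM with vehicle in diabetic mice. In nondiabetic mice the means were 5.74 ± 0.4598 CPM with LXA4, 5.53 ± 1.48 CPM with benzo-LXA4 and 5.73 ± 1.39 CPM with vehicle. C1qc averaged 7.42 ± 4.05 CPM with LXA4, 6.75 ± 1.57 CPM with benzo-LXA4 and 6.93 ± 1.28 CPM with vehicle in diabetic mice. The means of nondiabetic mice were 5.48 ± 1.28 CPM with LXA4, 5.38 ± 1.13 CPM with benzo-LXA4 and 5.68 ± 1.51 CPM with vehicle. After removal of both libraries rich in structural RNA, the averaged log2 differences were 0.32 for C1qa, 0.28 for C1qb and 0.28 for C1qc, and all 3 calls were kept.

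The MHC class II genes held 4 of the 6 highest levels per length among the members, and none of the 4 passed the test. H2-Aa, H2-Ab1 and H2-Eb1 encode the chains of the class II molecules and lie on chromosome 17 within 59.0 kb, from 34257689 to 34316674 (GRCm38). Averaged log2 differences were 0.24 ± 0.11 for Cd74, 0.17 ± 0.12 for H2-Ab1, 0.10 ± 0.08 for H2-Eb1 and 0.08 ± 0.07 for H2-Aa (adjusted p = 0.0827, 0.265, 0.364 and 0.42, edgeR). Cd74 averaged 83.4 ± 36.02 CPM with LXA4, 76.1 ± 18.2 CPM with benzo-LXA4 and 73.2 ± 9.98 CPM with vehicle in diabetic mice. Among nondiabetic mice it averaged 71.3 ± 4.74 CPM with LXA4, 58.8 ± 11.2 CPM with benzo-LXA4 and 66.95 ± 16.5 CPM with vehicle. H2-Eb1 averaged 40.3 ± 9.89 CPM with LXA4, 41.01 ± 7.66 CPM with benzo-LXA4 and 41.6 ± 4.93 CPM with vehicle in diabetic mice. Nondiabetic means were 39.7 ± 2.18 CPM with LXA4, 34.7 ± 6.08 CPM with benzo-LXA4 and 40.2 ± 9.94 CPM with vehicle. The means of H2-Eb1 differed little between groups beside their spread. H2-Ab1 averaged 35.7 ± 19.2 CPM with LXA4, 32.00 ± 7.16 CPM with benzo-LXA4 and 30.8 ± 4.86 CPM with vehicle in diabetic mice. In nondiabetic mice the means were 30.7 ± 3.67 CPM with LXA4, 25.8 ± 4.53 CPM with benzo-LXA4 and 30.4 ± 7.32 CPM with vehicle. For both Cd74 and H2-Ab1, diabetic LXA4 replicate 6 lay highest, at 154.0 and 73.9 CPM.

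The myeloid adaptors Tyrobp and Fcer1g carry the signals of receptors that lack a signalling tail. Neither passed in the averaged comparison, with log2 differences of 0.14 ± 0.14 and 0.23 ± 0.10 (adjusted p = 0.462 and 0.0668, edgeR). Fcer1g averaged 3.38 ± 1.298 CPM with LXA4, 3.12 ± 0.516 CPM with benzo-LXA4 and 3.71 ± 0.918 CPM with vehicle in diabetic mice. The means of nondiabetic mice were 2.83 ± 0.2100 CPM with LXA4, 3.005 ± 0.619 CPM with benzo-LXA4 and 2.69 ± 0.417 CPM with vehicle. Tyrobp averaged 2.75 ± 1.56 CPM with LXA4, 2.51 ± 0.454 CPM with benzo-LXA4 and 2.82 ± 0.854 CPM with vehicle in diabetic mice. Among nondiabetic mice it averaged 2.63 ± 0.427 CPM with LXA4, 2.33 ± 0.768 CPM with benzo-LXA4 and 2.21 ± 0.428 CPM with vehicle. Of the general leukocyte genes, Laptm5, a lysosomal protein of blood cells, and Itgb2, the common beta chain of the leukocyte integrins, rose by 0.25 ± 0.10 and 0.21 ± 0.07 (adjusted p = 0.0403 and 0.0184). Laptm5 averaged 9.59 ± 4.49 CPM with LXA4, 8.84 ± 1.91 CPM with benzo-LXA4 and 7.68 ± 1.22 CPM with vehicle in diabetic mice. Nondiabetic means were 7.22 ± 0.252 CPM with LXA4, 6.998 ± 0.392 CPM with benzo-LXA4 and 7.31 ± 1.38 CPM with vehicle. Itgb2 averaged 5.600 ± 0.937 CPM with LXA4, 5.95 ± 0.904 CPM with benzo-LXA4 and 6.31 ± 1.09 CPM with vehicle in diabetic mice. In nondiabetic mice the means were 5.03 ± 0.477 CPM with LXA4, 5.12 ± 0.508 CPM with benzo-LXA4 and 5.21 ± 0.658 CPM with vehicle. Ptprc, which encodes CD45, Cd53, a tetraspanin, and Coro1a, an actin regulator, differed by 0.11 ± 0.11, 0.11 ± 0.10 and 0.21 ± 0.17 and did not pass. Cd53 averaged 3.21 ± 0.8101 CPM with LXA4, 3.91 ± 0.5503 CPM with benzo-LXA4 and 4.09 ± 0.828 CPM with vehicle in diabetic mice. The means of nondiabetic mice were 3.64 ± 0.582 CPM with LXA4, 3.39 ± 0.337 CPM with benzo-LXA4 and 3.35 ± 1.13 CPM with vehicle. Coro1a averaged 7.64 ± 7.61 CPM with LXA4, 5.45 ± 0.941 CPM with benzo-LXA4 and 5.87 ± 1.26 CPM with vehicle in diabetic mice. Among nondiabetic mice it averaged 4.97 ± 0.565 CPM with LXA4, 4.89 ± 0.859 CPM with benzo-LXA4 and 5.93 ± 2.54 CPM with vehicle. Coro1a reached 23.1 CPM in diabetic LXA4 replicate 6, where the other 5 libraries averaged 4.54 ± 0.471 CPM (SD, n = 5), and it overlaps Bola2 on the other strand. Without that replicate the diabetic LXA4 means were lower for Tyrobp (2.13 CPM), Fcer1g (2.87 CPM), Laptm5 (7.83 CPM) and Itgb2 (5.445 CPM). The mean of Cd53 was higher (3.52 CPM).

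Of the 16 calls in the averaged comparison, 13 were kept in every fit that left out 1 of the 36 libraries, and 3 were lost in some. The count ranged from 13 to 19 over these fits. C1qc was kept in 24 fits and was not called without replicate 4, 5 or 6 of diabetic benzo-LXA4, replicate 1 or 3 of diabetic vehicle, replicate 1, 2 or 6 of nondiabetic LXA4, replicate 4, 5 or 6 of nondiabetic benzo-LXA4 or replicate 1 of nondiabetic vehicle, with an adjusted p of up to 0.0646. Laptm5 was kept in 22 fits and was not called without replicate 2 of diabetic LXA4, replicate 3, 5 or 6 of diabetic benzo-LXA4, replicate 1 or 3 of diabetic vehicle, replicate 3, 5 or 6 of nondiabetic LXA4, replicate 3 or 4 of nondiabetic benzo-LXA4 or replicate 1, 2 or 6 of nondiabetic vehicle, with an adjusted p of up to 0.0638. Lyz2 was kept in 20 fits and was not called without replicate 1 or 3 of diabetic LXA4, replicate 5 or 6 of diabetic benzo-LXA4, replicate 3, 4 or 5 of diabetic vehicle, replicate 1, 3 or 6 of nondiabetic LXA4, replicate 1, 5 or 6 of nondiabetic benzo-LXA4 or replicate 1, 5 or 6 of nondiabetic vehicle, with an adjusted p of up to 0.0847.

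Promoter sequence was available for 23 of the members (27 windows of 300 bases, from 250 before to 50 after the start) in RefSeq's GRCm38.p6 table. AGGAAG, the core of sites bound by ETS factors such as PU.1 in macrophages and ETS1 in T cells, was searched on both strands. It was found in 17 of the 27 member windows, from 14 genes, against 35.4% of all 32851 windows of the same length. The 14 include Cd3e, Cd53, Coro1a, Fcer1g, Fcgr3 and Ptprc, which were not called in the averaged comparison. A link between the motif and the rise was not tested. Windows are shown for 4 members that rose from 3 of the role groups, with the motif in capitals and CTTCCT where it lies on the reverse strand.
C1qb (chr4:136886151-136886450, minus strand): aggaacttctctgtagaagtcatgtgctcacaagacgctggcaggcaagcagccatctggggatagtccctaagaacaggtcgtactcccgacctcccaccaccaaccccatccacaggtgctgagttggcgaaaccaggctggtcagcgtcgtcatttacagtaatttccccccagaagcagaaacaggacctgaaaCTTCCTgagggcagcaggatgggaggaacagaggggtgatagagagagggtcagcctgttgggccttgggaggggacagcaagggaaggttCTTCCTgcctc
C1qc (chr4:136892865-136893164, minus strand): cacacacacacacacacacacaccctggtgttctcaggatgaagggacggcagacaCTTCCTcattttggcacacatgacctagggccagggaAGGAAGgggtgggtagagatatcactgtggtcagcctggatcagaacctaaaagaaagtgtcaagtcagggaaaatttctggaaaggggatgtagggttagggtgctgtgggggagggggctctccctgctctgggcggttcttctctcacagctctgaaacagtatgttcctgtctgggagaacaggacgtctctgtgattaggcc
Ctss (chr3:95526536-95526835, plus strand): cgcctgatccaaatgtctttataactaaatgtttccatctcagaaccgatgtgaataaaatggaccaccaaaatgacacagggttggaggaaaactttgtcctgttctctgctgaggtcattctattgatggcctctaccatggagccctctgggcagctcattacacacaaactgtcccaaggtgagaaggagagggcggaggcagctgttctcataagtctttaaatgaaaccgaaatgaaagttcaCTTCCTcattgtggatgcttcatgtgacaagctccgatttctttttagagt
Cd247 (chr1:165788431-165788730, plus strand): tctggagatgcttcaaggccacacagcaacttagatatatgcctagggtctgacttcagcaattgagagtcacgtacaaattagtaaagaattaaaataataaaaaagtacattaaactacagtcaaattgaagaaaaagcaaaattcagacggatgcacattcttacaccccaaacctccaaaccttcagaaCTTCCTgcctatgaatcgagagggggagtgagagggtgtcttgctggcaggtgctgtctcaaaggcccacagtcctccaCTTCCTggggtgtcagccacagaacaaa
Within these windows the matches do not overlap, and C1qb and Cd247 each hold 2 on the reverse strand.

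The MHC class II genes, which did not pass, are known to be driven through an inverted CCAAT box in their Y box. GATTGG, searched on both strands, was found in 4 of the 27 member windows (Cd53, Cd68, H2-Aa and H2-Eb1), against 16.1% of all windows, and is in capitals below (CCAATC where it lies on the reverse strand).
H2-Aa (chr17:34287774-34288073, minus strand): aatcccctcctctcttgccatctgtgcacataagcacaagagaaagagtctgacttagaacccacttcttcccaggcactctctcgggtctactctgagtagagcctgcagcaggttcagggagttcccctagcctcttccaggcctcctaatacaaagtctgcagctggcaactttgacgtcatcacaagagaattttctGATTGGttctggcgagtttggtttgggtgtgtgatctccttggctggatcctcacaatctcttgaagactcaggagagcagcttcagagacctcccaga
H2-Eb1 (chr17:34305617-34305916, plus strand): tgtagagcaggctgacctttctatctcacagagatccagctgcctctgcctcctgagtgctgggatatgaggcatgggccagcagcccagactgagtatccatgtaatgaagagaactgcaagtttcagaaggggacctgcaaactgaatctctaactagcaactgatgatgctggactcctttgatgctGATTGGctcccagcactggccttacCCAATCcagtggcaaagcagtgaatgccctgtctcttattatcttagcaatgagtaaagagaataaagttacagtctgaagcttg
A match of letters describes the window and shows no binding.

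With vehicle, the setting without any lipoxin, 3 of the 34 members were higher in diabetic mice and 0 were lower. They were Cd247 (0.85 ± 0.18), Ctss (0.50 ± 0.14) and Lgals3 (0.61 ± 0.18), log2 differences with adjusted p = 0.00438, 0.0339 and 0.0363 (edgeR). Of all genes, 5.6% were called, 3.44% higher and 2.16% lower. The members' median was 0.30 against −0.01 over all genes, and 31 of 34 lay above 0, against 47.7% of all genes. The T cell genes Ccl5 and Cd4 and the macrophage gene Cd68 differed by more than Lgals3 but did not pass, Ccl5 by 1.13 ± 0.39, Cd4 by 0.97 ± 0.31 and Cd68 by 0.75 ± 0.28 (adjusted p = 0.0806, 0.0536 and 0.104). Lyz2 differed by 0.70 ± 0.24 (adjusted p = 0.0817). Cd247, Cd4 and Ccl5 had every diabetic library above every nondiabetic one, which 1.72% of all genes had. With both structural-RNA-rich libraries removed, the same 3 and Cd4 and Fcer1g were called, while 8.89% of all genes were called. There, the log2 difference was 0.90 for Cd4 (adjusted p = 0.0312, edgeR) and 0.50 for Fcer1g (adjusted p = 0.0412, edgeR).

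Of these vehicle calls, 2 depended on single libraries. Cd247 was called whichever of the 12 libraries was left out. Ctss was not called without replicate 3, 4 or 5 of diabetic vehicle or replicate 1, 3 or 4 of nondiabetic vehicle, with an adjusted p of up to 0.102. Lgals3 was not called without replicate 3, 4 or 5 of diabetic vehicle or replicate 1, 2, 5 or 6 of nondiabetic vehicle, with an adjusted p of up to 0.117. The number of members called was 1 without replicate 3 or 5 of diabetic vehicle or replicate 1 of nondiabetic vehicle, 5 without replicate 4 of nondiabetic vehicle and 7 without replicate 2 of diabetic vehicle.

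Under LXA4, 3 members were higher in diabetic than in nondiabetic mice and 0 were lower, while 27.7% of all genes were called, 15.4% higher and 12.3% lower. They were Cd247 (0.78 ± 0.18), Mrc1 (0.60 ± 0.19) and Cx3cr1 (0.76 ± 0.21), with adjusted p = 0.00226, 0.0192 and 0.00683 (edgeR). The share of members called, 8.82%, was thus below that of all genes. Cx3cr1 and Lgals3 had every diabetic library above every nondiabetic one, which 4.87% of all genes had. Without the 2 libraries rich in structural RNA, Cx3cr1 differed by 0.41 (adjusted p = 0.0166), and Cd4 (0.72), Msr1 (0.86) and, lower, Csf1r (-0.31) were called as well, 6 in all, while 36.9% of all genes were called. Of the 34 members, 25 lay above 0, against 55.6% of all genes. The members' median log2 difference was 0.20 with all libraries and 0.11 without those 2, and 0.30 without replicate 1 of diabetic LXA4. In the same comparison urothelium markers were higher, 3 of 8 with inner medulla markers included (Upk3b by 2.63, Upk1a by 1.70 and Upk2), and all 8 lay above 0 with a median of 2.59. The list summed to 20.4 to 208.6 CPM in diabetic LXA4 and 3.21 to 48.4 CPM in nondiabetic LXA4 libraries, and its part in the members' values was not tested. None of the 8 was called without replicate 5 of diabetic LXA4 or replicate 1, 3, 4 or 6 of nondiabetic LXA4, 1 was called without replicate 2 or 3 of diabetic LXA4 or replicate 5 of nondiabetic LXA4, and 5 were called without replicate 2 of nondiabetic LXA4.

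Under benzo-LXA4, Cd247 alone was called, higher by 0.93 ± 0.18 (adjusted p = 0.002, edgeR), while 4.06% of all genes were called, 2.81% higher and 1.25% lower. All 6 diabetic benzo-LXA4 libraries lay above all 6 nondiabetic benzo-LXA4 libraries for Cd247, which 3.18% of all genes did. The members' median was 0.30, and 33 of 34 lay above 0, against 48.5% of all genes. Without the 2 libraries rich in structural RNA, Cx3cr1 was called too (0.38, adjusted p = 0.0489, edgeR), while 12.1% of all genes were called. Neither library is in these groups, but both share the estimate of the spread. Leaving out replicate 1 of diabetic benzo-LXA4 also gave 2 calls. Adipose markers were lower in the same comparison, 6 of 7, and 0 were called without replicate 1 of nondiabetic benzo-LXA4. The 6 adipose genes other than Pck1, which proximal tubule cells also make, summed to 8.77 to 16.7 CPM in diabetic benzo-LXA4, and to 607.3 CPM in that replicate and 9.43 to 51.2 CPM in the other nondiabetic benzo-LXA4 libraries. Without that replicate Cd247 was still the one member called.

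**Figure D3:**
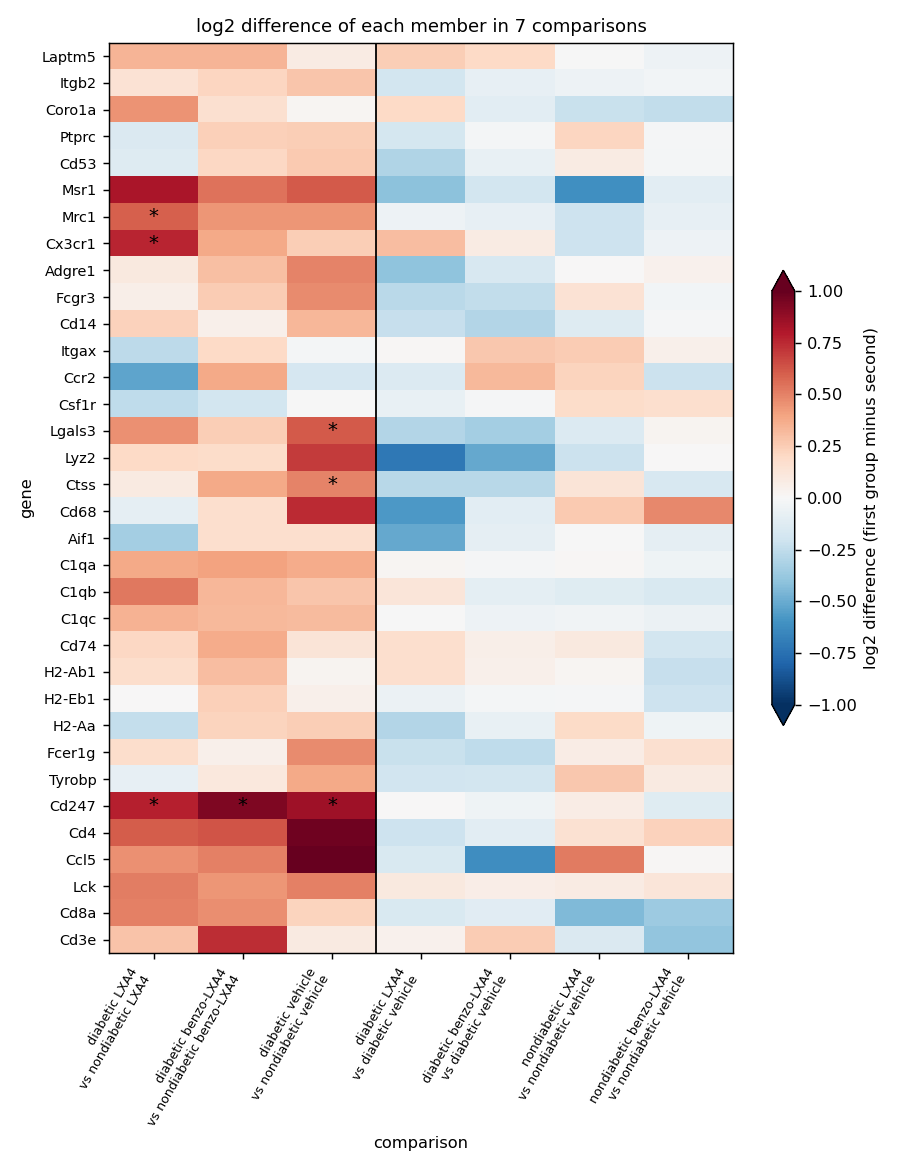
Log2 difference (colour, first group minus second) of the 34 genes in 7 comparisons, the 3 of diabetes on the left of the line and the 4 of a lipoxin against vehicle on the right. Stars mark an adjusted p under 0.05, and all 7 stars lie left of the line, 3 of them on Cd247.

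Next, each lipoxin was compared with vehicle. In diabetic mice, the LXA4 and benzo-LXA4 comparisons share the diabetic vehicle libraries, and the doses differ, so the values are given side by side. With LXA4, 0 of 34 members were called by edgeR, and 0.356% of all genes were called. The median log2 difference was −0.15, and 11 of 34 members lay above 0, against 51.4% of all genes. At an unadjusted p under 0.05, 4 members were lower and 0 higher, Lyz2, H2-Aa, Adgre1 and Cd68, while 6.06% of all genes were lower at that level. DESeq2 and limma's voom also called 0 members. Lyz2 differed by -0.72 ± 0.24 (95% interval -1.21 to -0.23, adjusted p = 0.175, edgeR) and Cd68 by -0.57 ± 0.27 (95% interval -1.13 to -0.01, adjusted p = 0.308). Without the 2 libraries rich in structural RNA, 0 members and 0.591% of all genes were called. The median was −0.21 over the members and −0.01 over all genes. There, 7 members were lower at an unadjusted p under 0.05. The share of all genes at that level was not computed for this fit, so the 7 have no background beside them.

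With benzo-LXA4 in diabetic mice, 0 members were called by edgeR and 0 of all genes (0%). The median was −0.08, and 8 of 34 members lay above 0, against 47.6% of all genes. At an unadjusted p under 0.05 only Lyz2 was lower, by -0.51 ± 0.24 (95% interval -0.99 to -0.03, unadjusted p = 0.0394, adjusted p = 0.844, edgeR), while 2.57% of all genes were lower at that level. DESeq2 and voom called 0 members here too. Lyz2 thus lay at a median of 14.4 CPM with LXA4 and 15.3 CPM with benzo-LXA4, against 26.1 CPM with vehicle, and the ranges of the 3 diabetic groups overlapped. All 5 lysosomal and secreted macrophage genes had differences below 0 with LXA4 and with benzo-LXA4, with medians of −0.51 and −0.28. The 2 myeloid adaptors did too, with medians of −0.21 and −0.22. All 3 C1q chains lay below 0 with benzo-LXA4, while 2 of the 3 lay above 0 with LXA4. The LXA4 values include the high replicate 6. Without it, diabetic LXA4 means were 6.25 CPM for C1qa, 10.2 CPM for C1qb and 5.79 CPM for C1qc (n = 5). These lay below the diabetic vehicle means of 7.32, 12.4 and 6.93 CPM. A p that misses the threshold does not show that a compound left these genes unchanged.

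In nondiabetic mice, LXA4 gave 0 calls among the members and 0 among all genes (0%), a median of 0.01 and 19 of 34 members above 0, against 45% of all genes. Benzo-LXA4 gave 0 calls among the members and 0 among all genes (0%), a median of −0.04 and 11 of 34 above 0, against 44.5% of all genes. No member had an unadjusted p under 0.05 with LXA4, where 6.15% of all genes did, or with benzo-LXA4, where 2.87% did, and DESeq2 and voom called 0. For Cd247 the 95% interval of the difference was -0.30 to 0.45 with LXA4 and -0.50 to 0.26 with benzo-LXA4. The difference between diabetic and nondiabetic mice in the response to a lipoxin was tested as an interaction, and 0 members were called for LXA4 (0.248% of all genes) and 0 for benzo-LXA4 (0% of all genes). At an unadjusted p under 0.05, H2-Aa (-0.49 ± 0.17) and Cd68 (-0.84 ± 0.39) had a lower LXA4 response in diabetic mice, as 5.6% of all genes did, and no member had such a p for benzo-LXA4, against 4.28% of all genes. DESeq2 and voom called 0 members for both interactions.

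The number of members above their own mean differed between libraries of a group. In diabetic vehicle replicate 3, all 34 members lay above their mean over the 36 libraries, and in replicate 2 of that group 16 did. In diabetic LXA4, replicate 2 had 26, replicate 1 had 9 and the other libraries had 17 or 18. In diabetic benzo-LXA4, replicates 3 and 6 had 32 members above their mean and replicate 1 had 5. Replicate 3 held the highest value of the benzo-LXA4 group for 21 members, and replicate 1 the lowest for 23. Both libraries rich in structural RNA split the members. Diabetic LXA4 replicate 6 held the highest value of its group for 15 members and the lowest for 13, and nondiabetic vehicle replicate 3 the highest for 11 and the lowest for 11. Nondiabetic libraries had between 4 and 19 members above the mean. The summed level of all 34 was 324.8 to 597.2 CPM with LXA4, 307.9 to 495.2 CPM with benzo-LXA4 and 379.7 to 492.6 CPM with vehicle in diabetic mice. It was 336.9 to 410.4 CPM with LXA4, 317.0 to 376.4 CPM with benzo-LXA4 and 315.2 to 435.4 CPM with vehicle in nondiabetic mice, so that the ranges overlapped in each treatment.

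**Figure D4:**
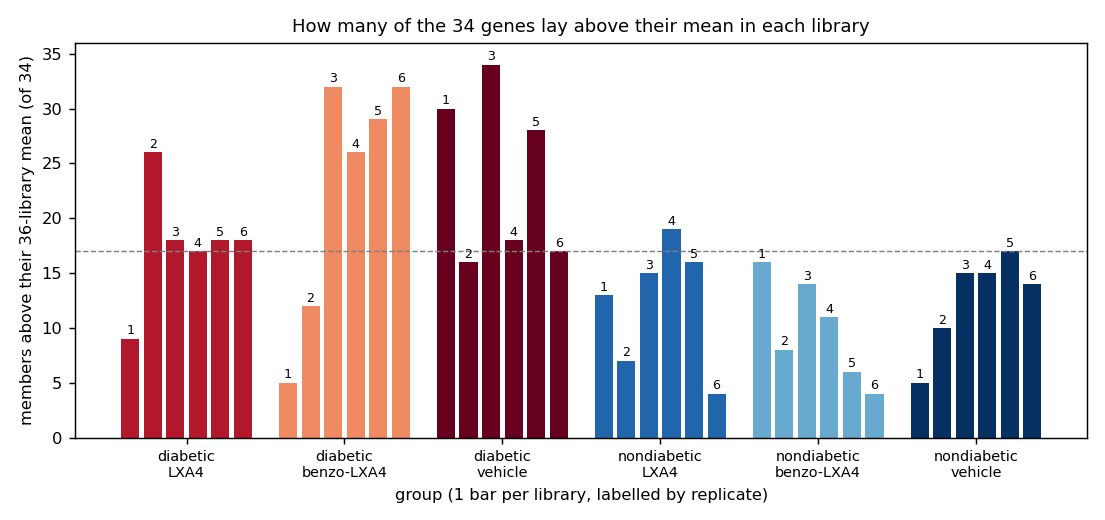
Number of the 34 genes above their mean over all 36 libraries, 1 bar per library labelled by replicate, with a dashed line at 17. Diabetic vehicle replicate 3 reaches 34 and diabetic benzo-LXA4 replicate 1 stays at 5, while the nondiabetic bars run from 4 to 19.

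Markers of other cells moved beside these genes, and their part in the results was not tested. In the averaged comparison, 16.6% of all genes were lower and 18.8% higher. There, 10 of 14 proximal tubule markers fell and 0 rose, with a median of −0.40. By treatment, 7 fell with LXA4, 1 with benzo-LXA4 and 4 with vehicle, while 12.3%, 1.25% and 2.16% of all genes were lower. Miox (-0.72), Slc7a13 (-0.73) and Lrp2 (-0.42), which make an inositol-degrading enzyme, an amino acid transporter and megalin, fell in the average. The summed level of the 14 markers was 14850 to 22920 CPM with LXA4, 18730 to 22810 CPM with benzo-LXA4 and 14370 to 25600 CPM with vehicle in diabetic mice. It was 28510 to 33150 CPM with LXA4, 21590 to 29160 CPM with benzo-LXA4 and 20540 to 32540 CPM with vehicle in nondiabetic mice. Podocyte markers rose in 6 of 8 (median 0.26), and summed to 287.0 to 438.7 CPM in diabetic libraries and 258.6 to 392.4 CPM in nondiabetic ones. They rose in 3 of 8 with LXA4 and in 0 with benzo-LXA4 or vehicle. Of all genes, 15.4%, 2.81% and 3.44% were higher with LXA4, benzo-LXA4 and vehicle. Globin genes made up the 4 of 7 erythroid markers that fell (median −0.37), and the list summed to 114.7 to 441.3 CPM in diabetic and 165.1 to 399.2 CPM in nondiabetic libraries. The treatments differed in direction, with a median of −0.48 with LXA4 (1 called lower), −0.998 with benzo-LXA4 (5 called lower) and 0.38 with vehicle (0 called, all 7 above 0). With 1 library left out at a time, 1 to 5 erythroid markers were called in the average, 1 of them without replicate 5 of nondiabetic benzo-LXA4 or replicate 6 of nondiabetic vehicle, and 2 without replicate 1 or 4 of diabetic LXA4, replicate 1 or 2 of diabetic benzo-LXA4 or replicate 4 of diabetic vehicle. Of 7 adipose markers, 3 were called lower in the average (Ucp1, Plin1 and Fabp4), and 0 without replicate 1 of nondiabetic benzo-LXA4, 1 without replicate 2 of nondiabetic vehicle and 5 without replicate 3 of diabetic vehicle. None was called with LXA4 and 1 with vehicle, where the list medians were −0.29 and 0.08. The 1 was Pck1 (-0.86, adjusted p = 0.0474, edgeR), which proximal tubule cells also make. Nondiabetic benzo-LXA4 against vehicle had 6 of the 7 higher at an unadjusted p under 0.05 and 0 called. Of 10 endothelial markers Ehd3 rose and Kdr fell (median 0.05), and of 10 distal tubule and collecting duct markers Calb1 rose and Umod fell (median 0.07). In the average none of 8 urothelium and inner medulla markers was called by edgeR, and none had an unadjusted p under 0.05, unlike under LXA4. In the LXA4 interaction 0 of the 8 were called and 6 were higher at an unadjusted p under 0.05, with a median of 3.47.

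Other leukocyte genes, from lists that were drawn up with results of these data known, moved in the averaged comparison. There, 35.4% of all genes were called, 18.8% higher and 16.6% lower. Of 36 other macrophage and dendritic cell genes, 17 rose and 1 fell, with a median of 0.26. Cd86 (0.64), a costimulatory ligand, Vav1 (0.34), a signalling protein of blood cells, and H2-DMb1 (0.47), which helps load peptides on class II molecules, were among the higher ones. Fcgr2b, the inhibitory receptor for IgG, was the one that fell, by 0.60 (adjusted p = 1.11e-06, edgeR). Of 16 chemokines, growth factors and receptors of leukocyte recruitment, 9 rose and 1 fell. Cxcl10 (1.22), which draws in T cells, and Vcam1 (0.57), which holds leukocytes to endothelium and is also made by tubule cells, were among those that rose, and the endothelial selectin gene Sele (-0.76), named after its value was seen, fell. B and plasma cell markers had 2 of 5 called, both higher, Mzb1 (0.65) and Jchain (0.82), or 40%, near the 35.4% of all genes. Of 14 neutrophil and mast cell markers only 2 were tested, too few to describe these cells, and the receptor gene Kit rose (0.22). With vehicle, LXA4 and benzo-LXA4, 16.7%, 13.9% and 5.56% of the macrophage and dendritic cell list were called. The recruitment list had 25%, 6.25% and 6.25% called, and the B and plasma cell list 20%, 0% and 20%. Over all genes the shares were 5.6%, 27.7% and 4.06%.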

How the data were processed

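The authors deposited 1 table of raw gene counts for 36 libraries. Tools named in the submitters' processing notes are bcl2fastq 2.17.1.14, STAR and featureCounts, with the GRCm38 build. Per the labels' protocols, directional libraries were made from 200 ng of total RNA after depletion of ribosomal RNA. The strand setting of the count step is not given in the sources used here, nor are the annotation and the versions of the aligner and counter. Columns were matched to samples by their labels, and 0 columns were left unmatched. Coordinates and exon lengths come from GENCODE M21 (GRCm38).

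Counts were tested with edgeR 4.0.16 in R 4.3.3 (quasi-likelihood F test, 2-sided, TMM factors, low-count filter, 15726 genes kept, 1 fit of 36 libraries without covariates). In each of 10 comparisons p-values were adjusted over all genes by the Benjamini-Hochberg method and called under 0.05. CPM values are given as mean ± SD (n = 6 per group unless stated), and log2 differences with their SE. All members are named or counted, and values in every group are given for those called in any comparison and for the 3 of highest CPM per kb in each role. From each other list at most the 4 called genes of smallest adjusted p are named. The members and lists were chosen with earlier results of these data known. Intervals and floors cover counting error or the spread between libraries only. Removal of the 2 libraries rich in structural RNA was chosen after the data were seen.

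Alternatives were RLE factors, DESeq2 1.42.0, limma 3.58.1 voom with quality weights, other low-count filters, only the groups compared, a replicate block, removal of structural RNA genes, and each library left out.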

Additional observations from a re-analysis of the deposited data

Results flagged for a closer look

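In 25 of 204 groups of 6 values (34 genes in 6 groups), the highest or lowest library stood apart from the others by Dixon's test at its 95% critical value, where chance alone flags about 5% of groups. Of these, 13 were diabetic LXA4 replicate 6, the library with 42.9% structural RNA and the fewest counts. It was highest for Laptm5 (18.4 CPM), Coro1a (23.1 CPM), Cx3cr1 (30.9 CPM), C1qa (16.3 CPM), C1qb (35.4 CPM), C1qc (15.6 CPM), Cd74 (154.0 CPM), H2-Ab1 (73.9 CPM), H2-Eb1 (59.3 CPM), Tyrobp (5.903 CPM) and Fcer1g (5.903 CPM). It was lowest for Cd53 (1.65 CPM) and Fcgr3 (0 CPM). The part of its depth and RNA make-up in these values was not tested.

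The remaining high values were Cd53 in nondiabetic benzo-LXA4 replicate 1 (4.04 CPM), Coro1a in diabetic benzo-LXA4 replicate 3 (7.33 CPM), Coro1a in nondiabetic vehicle replicate 3 (10.9 CPM), Msr1 in nondiabetic benzo-LXA4 replicate 3 (1.59 CPM), Lgals3 in nondiabetic benzo-LXA4 replicate 3 (22.4 CPM), Cd3e in nondiabetic benzo-LXA4 replicate 5 (0.621 CPM) and Ccl5 in nondiabetic LXA4 replicate 5 (0.724 CPM). The remaining low values were Ptprc in nondiabetic vehicle replicate 3 (9.72 CPM), Csf1r in nondiabetic benzo-LXA4 replicate 1 (33.5 CPM), Cd14 in nondiabetic vehicle replicate 1 (1.197 CPM), H2-Aa in nondiabetic LXA4 replicate 6 (32.3 CPM) and H2-Ab1 in nondiabetic benzo-LXA4 replicate 3 (16.9 CPM).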

How the results depend on the processing

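The number of members called, 3 with vehicle, 3 with LXA4, 1 with benzo-LXA4 and 16 averaged over treatments in the comparisons of diabetic with nondiabetic mice, was the same with RLE factors, with structural RNA genes removed and with no low-count filter. DESeq2 called 6, 6, 1 and 16 in that order, and voom with quality weights 8, 7, 4 and 17. With genes of at least 5 CPM on average, which holds 18 members, 2, 3, 0 and 12 were called, and with only the groups compared 2, 5 and 2 in the first 3. Without the 2 libraries rich in structural RNA the numbers were 5, 6, 2 and 17, while 8.89%, 36.9%, 12.1% and 47.4% of all genes were called. Leaving out 1 library at a time gave 1 to 7, 3 to 4, 1 to 2 and 13 to 19. In the comparisons of a lipoxin with vehicle and in both interactions, 0 members were called under every alternative, leave-one-out fits included (0 to 0). Of 843 repeats of the calls of single members, 60 missed the threshold and 0 changed sign. Those outside the leave-one-out fits were Ccl5 averaged (voom), Ctss, Lgals3 with vehicle and Cx3cr1 with LXA4 (only the groups compared, adjusted p = 0.0581, 0.151 and 0.0724), and Laptm5 averaged (replicate block, adjusted p = 0.051). The cause was not tested. Over all genes, 881 were called with vehicle, against 1330 with DESeq2, 2221 with voom, 442 at 5 CPM, 342 with only the groups compared and 1399 without the 2 libraries. Counts that moved by over 1.5 times, or from 0, elsewhere were, in those settings in that order, 638 against 1064, 2568, 313, 1875 and 1906 for diabetic with nondiabetic benzo-LXA4. For diabetic with nondiabetic LXA4 they were 4353 against 6954 (voom) and 2338 (only the groups compared). For LXA4 with vehicle in diabetic mice they were 56 against 231 (DESeq2), 172 (voom), 28 (block), 1 (only the groups compared) and 93 (without the 2 libraries), and for benzo-LXA4 0 against 52 (DESeq2), 105 (voom), 3 (only the groups compared) and 48 (without the 2 libraries). For the LXA4 interaction they were 39 against 266 (DESeq2), 211 (voom), 80 (5 CPM), 9 (block), 0 (only the groups compared) and 129 (without the 2 libraries). In nondiabetic mice they were 0 against 3 (DESeq2) and 3 (voom) for LXA4 with vehicle, and 0 against 2 (DESeq2) for benzo-LXA4 with vehicle. The block on the replicate number gave 3, 4, 1 and 15 members; same-numbered libraries did not pair (90 pairs, correlation of deviations −0.417 to 0.465, median −0.00349), and 5 of 36 libraries lay closest to their own number. Ccl5, Cd8a and Cd3e had at most 50, 55 and 34 counts per library, and diabetic LXA4 replicate 6 had the fewest counts in all, and what depth adds to their error was not tested.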
